A study of Mus musculus with 6 samples.

Results

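The genes described here are 9 cytosolic heat shock chaperone and polyubiquitin genes, Hspa8, Hsp90aa1, Hsp90ab1, Hspa1a, Hspa1b, Hsph1, Dnajb1, Dnaja1 and Ubb, chosen by name out of the 17042 gene symbols present in all 6 count tables. Spinal cords of mice were dissociated with Accutase, freed of myelin and passed over an OptiPrep gradient, and the live cells went through Drop-seq, in which the RNA of each droplet receives its own barcode and each molecule a unique identifier (UMI). Group SOD1-Nec had the SOD1-G93A genotype and received Necrostatin-1s, which inhibits the RIPK1 kinase. Group SOD1-Veh had the same genotype and received vehicle, and group WT-Veh was wild type and received vehicle. Each group had 2 libraries. SOD1-G93A mice carry a mutant human SOD1 transgene and are used as a model of amyotrophic lateral sclerosis. The labels give no age, sex or strain background, no dose, and no statement of which animals each library came from, so every p-value measures the spread between these libraries only.

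Heat shock proteins hold unfolded or newly made polypeptides and help them to fold. Hspa8 encodes Hsc70, the constitutive cytosolic Hsp70, while Hspa1a and Hspa1b are neighbouring, near-identical genes for the stress-inducible Hsp70. Dnajb1 and Dnaja1 encode Hsp40 proteins that deliver substrates to Hsp70 and stimulate its ATPase, and Hsph1 encodes Hsp110, which exchanges its nucleotide. Hsp90aa1 and Hsp90ab1 encode the inducible and the constitutive cytosolic Hsp90, which mature kinases and steroid receptors. Ubb encodes polyubiquitin, a chain of ubiquitin repeats that is cut into single ubiquitins for tagging proteins for the proteasome. Many of these genes are induced by heat shock factor Hsf1, which binds repeats of the letters GAA in alternating orientation near the promoter.

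Promoter windows are shown because Hsf1 binds there when these genes are induced. RefSeq, on build GRCm38.p6, had 11 windows for 6 of the 9 genes. In the 250 bases before each transcription start, both strands were searched for an inverted pair of heat shock element units, GAANNTTC or TTCNNGAA, and for 3 alternating units in a row, which contain the pairs. The pair was present for 4 of the 6 genes, Hspa1a, Hspa1b, Hsph1 and Dnaja1, and absent from the windows of Dnajb1 and Ubb. No window held 3 units. Of all 27025 genes with such a window, 14.5% held the pair in at least 1 of their windows and 0.514% held 3 units. The Hspa1a window (chr17:34972157-34972406, minus strand) and the Hspa1b window (chr17:34959239-34959488, minus strand) were identical at 247 of 250 bases, with the pair 104 to 97 bases before the start. In Hsph1 (chr5:149636337-149636586, minus strand, 1 of 2 windows) the pair lay 33 to 26 bases before the start. Capitals mark the pair, and the Ubb window (chr11:62550921-62551170, plus strand, 1 of 2 windows) is printed as one without it.
Hspa1a: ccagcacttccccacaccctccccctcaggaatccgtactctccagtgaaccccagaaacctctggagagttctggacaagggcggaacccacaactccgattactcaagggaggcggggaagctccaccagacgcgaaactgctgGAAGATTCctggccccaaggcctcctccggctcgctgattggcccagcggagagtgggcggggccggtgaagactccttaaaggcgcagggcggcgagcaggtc
Hspa1b: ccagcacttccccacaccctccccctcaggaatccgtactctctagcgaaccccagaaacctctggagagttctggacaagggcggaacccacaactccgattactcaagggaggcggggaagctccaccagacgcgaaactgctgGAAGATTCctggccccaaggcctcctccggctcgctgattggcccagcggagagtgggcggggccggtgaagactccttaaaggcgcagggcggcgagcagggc
Hsph1: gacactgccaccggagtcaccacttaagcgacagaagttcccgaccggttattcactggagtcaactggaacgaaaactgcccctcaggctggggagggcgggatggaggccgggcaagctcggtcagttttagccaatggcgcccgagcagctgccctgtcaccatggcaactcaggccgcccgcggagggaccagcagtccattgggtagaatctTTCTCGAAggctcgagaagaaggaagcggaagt
Ubb: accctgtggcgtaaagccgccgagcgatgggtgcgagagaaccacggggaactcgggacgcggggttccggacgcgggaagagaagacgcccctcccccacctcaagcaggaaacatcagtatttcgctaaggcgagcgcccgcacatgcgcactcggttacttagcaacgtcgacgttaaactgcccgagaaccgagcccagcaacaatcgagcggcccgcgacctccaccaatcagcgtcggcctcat

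The libraries held 2788 to 3900 barcodes and 1508618 to 1767205 UMIs each. Cells were retained at 200 or more detected genes and at most 20% mitochondrial UMIs, and 3331 remained after 29 doublets were left out. The SOD1-Nec libraries kept 658 and 791 cells, the SOD1-Veh libraries 395 and 430, and the WT-Veh libraries 508 and 549, with median depths of 524 to 527, 699.5 to 727 and 576 to 655 UMIs per cell. Library pairs shared 4 to 9 barcodes before the cell filter, and 1 barcode of SOD1-Nec 1 and WT-Veh 1 was shared among retained cells. Sod1 separated the genotypes, at 3686 and 4430 counts per 1000000 UMIs (CPM) in SOD1-Nec, 4156 and 5874 in SOD1-Veh and 254 and 169 in WT-Veh. Of 20 clusters, formed with the 9 genes removed, 19 could be named from marker genes, in 15 classes, and each class name stands for such marker-defined cells. There were 633 microglia, 491 B cells, 474 erythroid cells, 413 neutrophils and 301 monocytes, and these 5 classes had at least 20 cells in every library and were tested.

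The genes differed in the cell class with their highest level, which was a rare class for some and microglia for others. Levels are given as pooled CPM within a class, with exact 95% intervals for counting error only. Ependymal cells, the ciliated cells that line the central canal, had 7420 CPM of Hsp90aa1 (95% interval 6860 to 8000), from 661 UMIs in 57 cells. The same cells had 6360 CPM of Hsp90ab1 and 640 CPM of Hsph1. They held 19 of the 30 Hspa1b UMIs of the whole series. Oligodendrocytes, the myelinating cells, came next for Hsp90aa1 with 2590 CPM and had 3340 CPM of Hsp90ab1, against 3750 CPM of Hsp90ab1 in myeloid progenitors. Oligodendrocyte precursors had 2160 CPM of Ubb and 781 CPM of Dnaja1, the highest pooled values, but in 48 cells, and the SOD1-Veh libraries supplied 31 and 32 of the 105 Ubb UMIs. Pooled values mix the groups in the proportions of each class. Cells classed as neurons had 193 CPM of Ubb and 108 CPM of Hspa8, the lowest values of any class for either gene, from 25 and 14 UMIs, with 161 of the 253 neurons from WT-Veh 2.

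Hspa1a and Dnajb1 had their highest pooled levels in microglia, but for Hspa1a microglia and ependymal cells were not separated. The Hspa1a interval in microglia, 70.6 to 127 CPM, lay within that in ependymal cells, 24.7 to 147 CPM (67.3 CPM from 6 UMIs). Microglia held 48 of the 72 Hspa1a UMIs and had 95.7 CPM. No Hspa1a UMI was counted in erythroid cells or neutrophils, where the intervals reached up to 4.78 and 9.73 CPM. Dnajb1 had 285 CPM in microglia (143 UMIs) against 14.6 to 146 CPM in the other named classes.

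**Figure D1:**
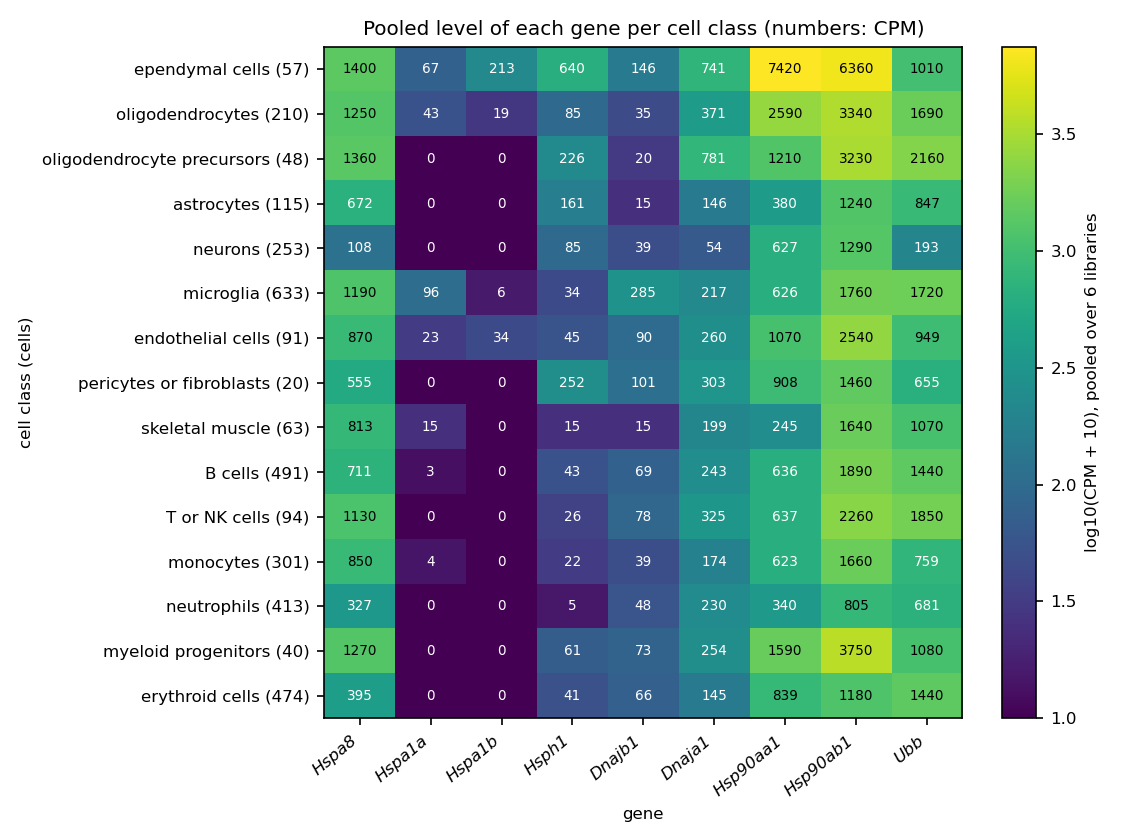
Pooled level of each of the 9 genes (columns) in each cell class (rows), with the CPM printed in the cell and the colour on a log10(CPM + 10) scale. Ependymal cells stand out for Hsp90aa1 at 7420 CPM, Hsp90ab1 at 6360 CPM and Hsph1 at 640 CPM, and microglia for Dnajb1 at 285 CPM. Hspa1a is highest in microglia at 95.7 CPM, with 67.3 CPM in ependymal cells from 6 UMIs.

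Among the 5 tested classes, neighbours in the order of mean log2 levels were compared within each library. Dnajb1 averaged 289 ± 117 CPM in microglia and 67.8 ± 28.8 CPM in erythroid cells, the next class in that order (SD, n = 6 libraries), and was higher in microglia in 6 of 6 libraries. Hspa8 was higher in microglia (1207 ± 295 CPM) than in monocytes (860 ± 128 CPM) in 6 of 6 libraries, and higher in B cells (721 CPM) than in erythroid cells (388 CPM) in 6 of 6. Ubb averaged 1772 ± 680 CPM in microglia, 1496 CPM in erythroid cells and 1442 CPM in B cells, which were not separated, and B cells exceeded monocytes (834 CPM) in 6 of 6 libraries. Hsp90ab1 ran from B cells (1980 CPM) through microglia, monocytes and erythroid cells to neutrophils (798 CPM), and microglia and monocytes were the neighbours not separated in every library. Hsp90aa1 was lower in neutrophils (334 CPM) than in monocytes (600 CPM) in 6 of 6 libraries. Hspa1a was higher in microglia (98.5 CPM) than in monocytes (3.35 CPM) in 6 of 6. The neighbouring classes of Dnaja1 and Hsph1, and the other neighbours of Hsp90aa1, did not keep 1 order in every library. By an exact two-sided sign-flip test, 9 of 36 neighbouring pairs reached p = 0.03125, the smallest that 6 libraries allow. None had an adjusted p below 0.05 over the 36 tests, the smallest being 0.125. With p no smaller than 0.03125, a pair could pass only if many of the 36 reached that value together. Some pairs for Hspa1a and Hspa1b compared 0 with 0 UMIs, and the order came from the same levels. The adjusted result therefore cannot decide whether neighbouring classes differ.

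Over all retained cells, none of these genes passed the test in any comparison of groups. Of the 8 genes tested (Hspa1b had too few counts), 0 passed an adjusted p of 0.05 in SOD1-Veh against WT-Veh, where 0.829% of all 7482 genes did, 0 in SOD1-Nec against SOD1-Veh (0.548% of all genes) and 0 in SOD1-Nec against WT-Veh (0.0401% of all genes), by the edgeR quasi-likelihood test with Benjamini-Hochberg adjustment over all genes. With the skeletal muscle cluster left out, which was present only in SOD1-Veh (an alternative chosen after seeing the data), 6, 0 and 6 of 7452 genes passed, in place of 62, 41 and 3 of 7482, again with none of the 8. At an unadjusted p below 0.05 there were, in the fit over all cells, 2, 3 and 1 of the 8, where 10.4%, 7.06% and 8.46% of all genes were. DESeq2 called 0, 1 and 0 of the 8, and 46, 33 and 7 of all 7482 genes. The libraries of the groups compared did not overlap for 6, 7 and 4 of the 8 genes, where 38.6%, 40.4% and 38.9% of all genes did not overlap. The median log2 fold changes of the 8 genes were 0.03, -0.18 and -0.16, beside 0.01, -0.01 and -0.01 over all genes. In such sums over cells, fewer cells of a type and less RNA per cell cannot be told apart.

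The Hsp90 genes and Hsph1 were low in both SOD1-Veh libraries. Hsp90aa1 had 1367 and 1114 CPM in the SOD1-Nec libraries, 754 and 598 CPM in the SOD1-Veh libraries and 1000 and 1203 CPM in the WT-Veh libraries. Hsp90ab1 had 2280 and 1851 CPM in SOD1-Nec, 1475 and 1478 CPM in SOD1-Veh and 1787 and 2060 CPM in WT-Veh. Hsph1 had 99.8 and 46.9 CPM in SOD1-Nec, 23.2 and 27.4 CPM in SOD1-Veh and 88.3 and 80.7 CPM in WT-Veh, from 10 to 55 UMIs a library. For all 3 genes both SOD1-Veh libraries lay below all 4 others, and SOD1-Nec overlapped WT-Veh. None of these differences passed the test. The log2 difference of Hsph1 was -1.74 ± 0.44 (SE) for SOD1-Veh against WT-Veh (edgeR adjusted p = 0.107) and 1.52 ± 0.44 for SOD1-Nec against SOD1-Veh (edgeR adjusted p = 0.296). That of Hsp90aa1 was -0.72 ± 0.27 and 0.88 ± 0.27 in the same comparisons (edgeR adjusted p = 0.355 and 0.358). That of Hsp90ab1 was -0.40 ± 0.26 and 0.49 ± 0.26 (edgeR adjusted p = 0.647 and 0.739). Without SOD1-Nec 1, Hsph1 passed the test between SOD1-Veh and WT-Veh, with an edgeR adjusted p of 0.0305.

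The number of ependymal cells was lowest in SOD1-Veh, which also had the fewest retained cells. They were 17 of 658 and 13 of 791 retained cells in SOD1-Nec. In SOD1-Veh they were 6 of 395 and 1 of 430, and in WT-Veh 8 of 508 and 12 of 549. Their summed UMIs were 53931 and 7359 in SOD1-Nec, 8001 and 381 in SOD1-Veh and 6446 and 13006 in WT-Veh. SOD1-Veh 1 was thus above SOD1-Nec 2 and WT-Veh 1, and only SOD1-Veh 2 was below all others. Ependymal cells supplied 41.7% and 8.27% of the Hsp90aa1 UMIs in SOD1-Nec, 13.2% and 0% in SOD1-Veh and 12.5% and 27.6% in WT-Veh. For Hsph1 they supplied 69.1% and 3.33% in SOD1-Nec, 20% and 0% in SOD1-Veh and 18.8% and 16.3% in WT-Veh. With ependymal cells left out, an alternative chosen after seeing the data, the Hsph1 log2 difference between SOD1-Veh and WT-Veh was -1.66 ± 0.39 (edgeR adjusted p = 0.065) and that between SOD1-Nec and SOD1-Veh was 0.83 ± 0.41 (edgeR adjusted p = 0.748). The second Hsph1 difference was thus 0.83 where it was 1.52 with all cells, and the first kept most of its size. The Hsp90aa1 differences became -0.55 ± 0.25 and 0.64 ± 0.25. With oligodendrocytes left out as well, Hsp90aa1 differed by -0.31 ± 0.26 between SOD1-Veh and WT-Veh. Within oligodendrocytes, Hsp90aa1 had 2890 and 2580 CPM in SOD1-Nec, 1560 and 1810 CPM in SOD1-Veh and 2980 and 2890 CPM in WT-Veh, with 17 to 60 cells a library. Again both SOD1-Veh libraries were the lowest, and this class was too small to be tested.

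**Figure D2:**
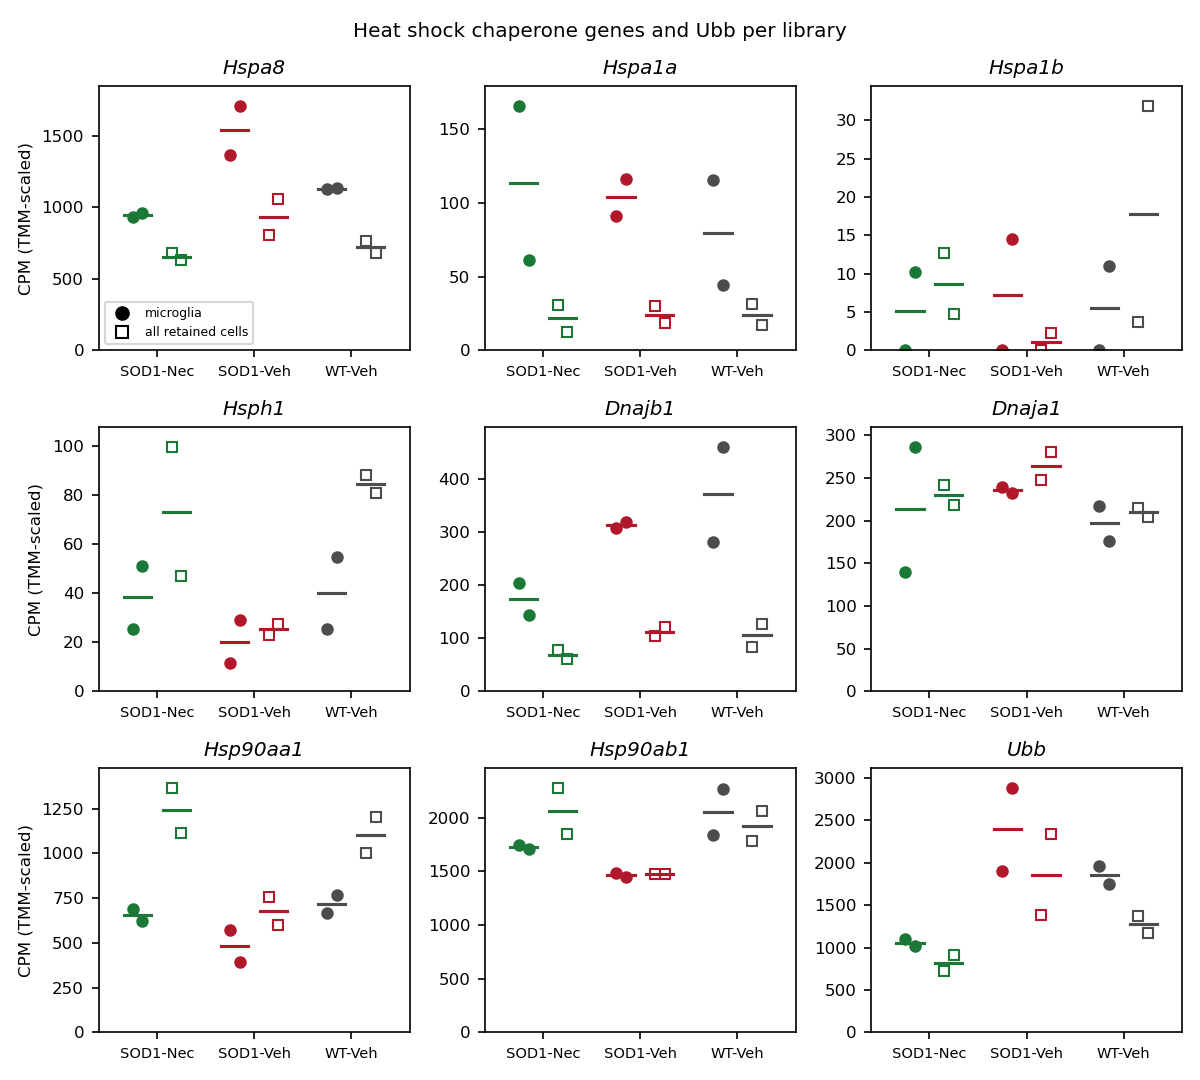
Level of each gene in microglia (filled circles) and over all retained cells (open squares) in every library (CPM scaled by TMM factors, each panel on its own axis from 0, bars for means), with SOD1-Nec, SOD1-Veh and WT-Veh from left to right. Over all retained cells, both SOD1-Veh libraries lie below the others for Hsp90aa1 (754 and 598 CPM) and Hsph1 (23.2 and 27.4 CPM), and both SOD1-Nec libraries lie below the others for Ubb (721 and 914 CPM).

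**Figure D3:**
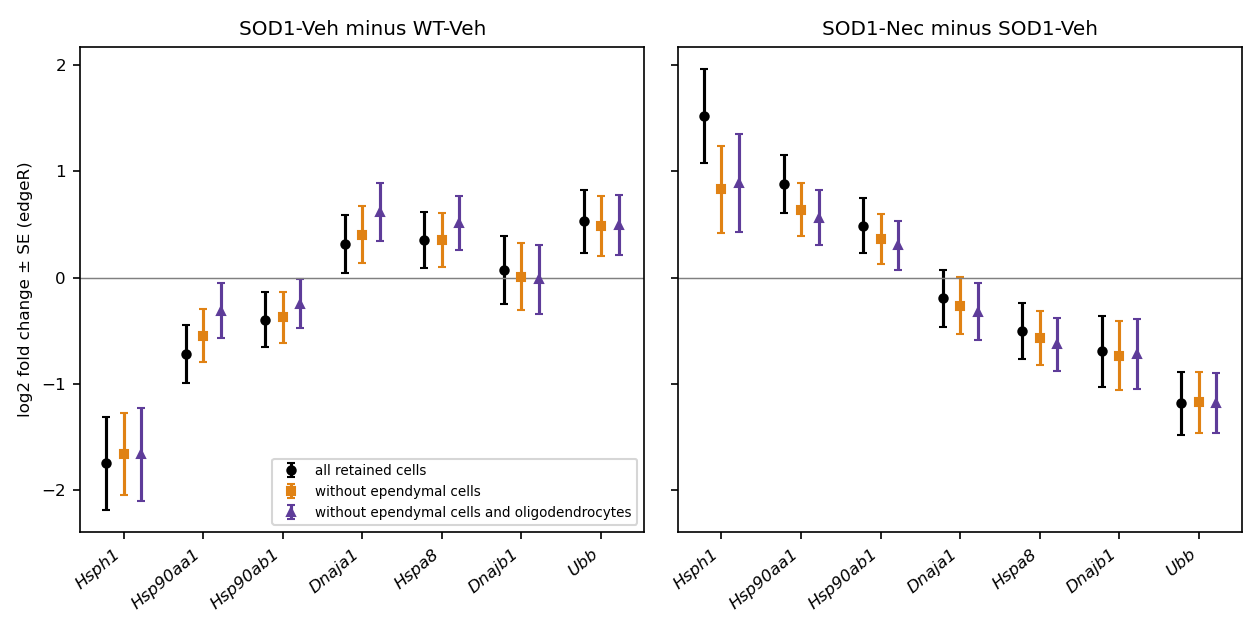
Log2 fold change with its SE (edgeR) for 7 genes in SOD1-Veh against WT-Veh and SOD1-Nec against SOD1-Veh, with all retained cells (circles), without ependymal cells (squares) and without ependymal cells and oligodendrocytes (triangles). Leaving out ependymal cells moved Hsph1 in SOD1-Nec against SOD1-Veh to 0.83, against 1.52 with all retained cells, while Ubb in the same comparison was -1.17 without ependymal cells and -1.18 with all.

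The polyubiquitin gene and the Hsp70 arm were ordered differently. Ubb had 721 and 914 CPM in SOD1-Nec, 1387 and 2337 CPM in SOD1-Veh and 1377 and 1175 CPM in WT-Veh. Both SOD1-Nec libraries were the lowest and both SOD1-Veh libraries the highest, with SOD1-Veh 1 close to WT-Veh 1. The log2 difference between SOD1-Nec and SOD1-Veh was -1.18 ± 0.30 (edgeR adjusted p = 0.169, unadjusted p = 0.00147). DESeq2 put it past the threshold (adjusted p = 0.0430). Against WT-Veh, Ubb differed by -0.65 ± 0.30 in SOD1-Nec (edgeR adjusted p = 0.570) and by 0.53 ± 0.30 in SOD1-Veh (edgeR adjusted p = 0.564). Hspa8 had 681 and 631 CPM in SOD1-Nec, 805 and 1058 CPM in SOD1-Veh and 763 and 682 CPM in WT-Veh. The order of groups was the same, though SOD1-Nec 1 and WT-Veh 2 were level. Its log2 differences were 0.50 or less in size.

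The Hsp40 genes and the inducible Hsp70 genes followed no common order. Dnajb1 had 78.1 and 60.9 CPM in SOD1-Nec, 104 and 121 CPM in SOD1-Veh and 84.6 and 128 CPM in WT-Veh. SOD1-Nec was lowest, and SOD1-Veh overlapped WT-Veh. The log2 differences of SOD1-Nec were -0.69 ± 0.33 from SOD1-Veh (edgeR adjusted p = 0.72) and -0.62 ± 0.33 from WT-Veh (edgeR adjusted p = 0.610). Dnaja1 had 241 and 219 CPM in SOD1-Nec, 248 and 281 CPM in SOD1-Veh and 215 and 205 CPM in WT-Veh. Its groups lay next to each other without overlap, with log2 differences of at most 0.32. Hspa1a had 30.9 and 12.5 CPM in SOD1-Nec, 30.2 and 18.2 CPM in SOD1-Veh and 31.3 and 16.9 CPM in WT-Veh, and the groups overlapped. Hspa1b had 7 and 3 UMIs in SOD1-Nec, 0 and 1 in SOD1-Veh and 2 and 17 in WT-Veh. Of the 17 UMIs in WT-Veh 2, 12 came from 12 ependymal cells, and the ratio of SOD1-Veh to WT-Veh of 0.0624 (exact 95% interval 0.0015 to 0.392, counting error only) rests on that library.

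In microglia, the resident macrophages of the cord, Ubb was lower with Necrostatin-1s. It had 1097 and 1014 CPM in the SOD1-Nec libraries, 1905 and 2887 CPM in the SOD1-Veh libraries and 1958 and 1749 CPM in the WT-Veh libraries, from 86 to 199 UMIs a library. Both SOD1-Nec libraries lay below the 4 vehicle libraries, which overlapped between genotypes. Ubb fell 2.27-fold in SOD1-Nec against SOD1-Veh (log2 -1.18 ± 0.23, edgeR adjusted p = 8.40e-05) and 1.78-fold against WT-Veh (log2 -0.83 ± 0.23, edgeR adjusted p = 0.0109). The difference between SOD1-Veh and WT-Veh was 0.35 ± 0.22 (edgeR adjusted p = 0.590). DESeq2 also put both differences past the threshold, with adjusted p of 0.00292 and 0.0449. Without SOD1-Veh 2 the first became -0.83 (edgeR adjusted p = 0.0713). The second missed the threshold without WT-Veh 1 (-0.76, edgeR adjusted p = 0.121), SOD1-Nec 1 (-0.87, edgeR adjusted p = 0.079) or SOD1-Nec 2 (-0.75, edgeR adjusted p = 0.196).

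Of the 6 genes tested in microglia, 0 passed in SOD1-Veh against WT-Veh by the edgeR test, where 2.4% of the 1540 genes tested did. At an unadjusted p below 0.05 there were 2 of the 6, where 11.7% of all genes were. DESeq2 called 0 of the 6 and 15 of the 1540. In SOD1-Nec against SOD1-Veh, 1 of 6, Ubb, passed and was lower, where 3.38% of all genes passed and 1.3% were lower. In SOD1-Nec against WT-Veh, 2 of 6, Ubb and Dnajb1, passed and were lower, where 6.36% passed and 2.53% were lower. Libraries did not overlap for 4, 5 and 4 of the 6 genes, where 41.4%, 41.9% and 50.1% of all genes did not. The median log2 differences of the 6 genes were -0.01, -0.41 and -0.27, beside 0.03, -0.04 and -0.0044 over all genes.

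Several measures moved with the fall of Ubb in microglia, and their part in it was not tested. Median depth was 516 and 477 UMIs per microglial cell in SOD1-Nec, 814 and 785 in SOD1-Veh and 596 and 705 in WT-Veh. Cells were thus shallowest in SOD1-Nec, and red cell RNA was highest there. All 13 erythroid markers were detected in SOD1-Nec microglia, against 11 of 13 in SOD1-Veh microglia and 11 of 13 in WT-Veh microglia, with Slc4a1 at 0 in both vehicle groups. Their summed level was 48100 and 33900 CPM in SOD1-Nec, 3030 and 5510 CPM in SOD1-Veh and 10300 and 16800 CPM in WT-Veh. Astrocyte and oligodendrocyte markers were also highest in SOD1-Nec. The astrocyte markers summed to 3170 and 3050 CPM in SOD1-Nec, 2020 and 2390 CPM in SOD1-Veh and 2500 and 2070 CPM in WT-Veh. All 12 were detected in every group. The oligodendrocyte markers summed to 12400 and 13900 CPM in SOD1-Nec, 10100 and 10400 CPM in SOD1-Veh and 9070 and 6560 CPM in WT-Veh. Of these 12 genes, 9 were detected in SOD1-Nec (Mog, Ugt8a and Opalin at 0), 11 in SOD1-Veh (Opalin at 0) and 12 in WT-Veh. Mitochondrial UMIs were 6.94% and 7.03% of microglial UMIs in SOD1-Nec, 5.43% and 6.78% in SOD1-Veh and 4.9% and 4.34% in WT-Veh. Microglial markers ran the other way between SOD1-Nec and the vehicle groups. These 15 genes, all detected in every group, summed to 27700 and 29900 CPM in SOD1-Nec, 35800 and 37400 CPM in SOD1-Veh and 43000 and 45300 CPM in WT-Veh. Haemoglobin UMIs were 4.70% and 3.33% of microglial UMIs in SOD1-Nec, 0.276% and 0.521% in SOD1-Veh and 0.994% and 1.63% in WT-Veh.

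Microglia were made of 2 clusters whose shares moved with the groups. One had 291 cells and was led by Adamts1, Ccl3, Atf3 and Ccl4. The other had 342 cells and was led by Lpl, Trem2, Siglech and Ctsd. The Ccl3 and Atf3 cluster made up 26.4% of microglia in SOD1-Nec, 60.5% in SOD1-Veh and 61.9% in WT-Veh. Within it, Ubb had 1290 and 1029 CPM in SOD1-Nec, 2332 and 3195 CPM in SOD1-Veh and 2054 and 1991 CPM in WT-Veh, again with both SOD1-Nec libraries below all others. Fitted in that cluster alone, an alternative chosen after seeing the data, the log2 difference between SOD1-Nec and SOD1-Veh was -1.30 ± 0.25 (edgeR adjusted p = 0.0085), and that between SOD1-Nec and WT-Veh was -0.82 (edgeR adjusted p = 0.087). In the Lpl and Trem2 cluster, Ubb had 884 and 949 CPM in SOD1-Nec, 988 and 1440 CPM in SOD1-Veh and 1712 and 1146 CPM in WT-Veh. SOD1-Nec was lowest there too, and the difference between SOD1-Nec and SOD1-Veh was -0.29 ± 0.37 (edgeR adjusted p = 0.719) over 342 genes tested. Whether the difference itself varied between the clusters was not tested.

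**Figure D4:**
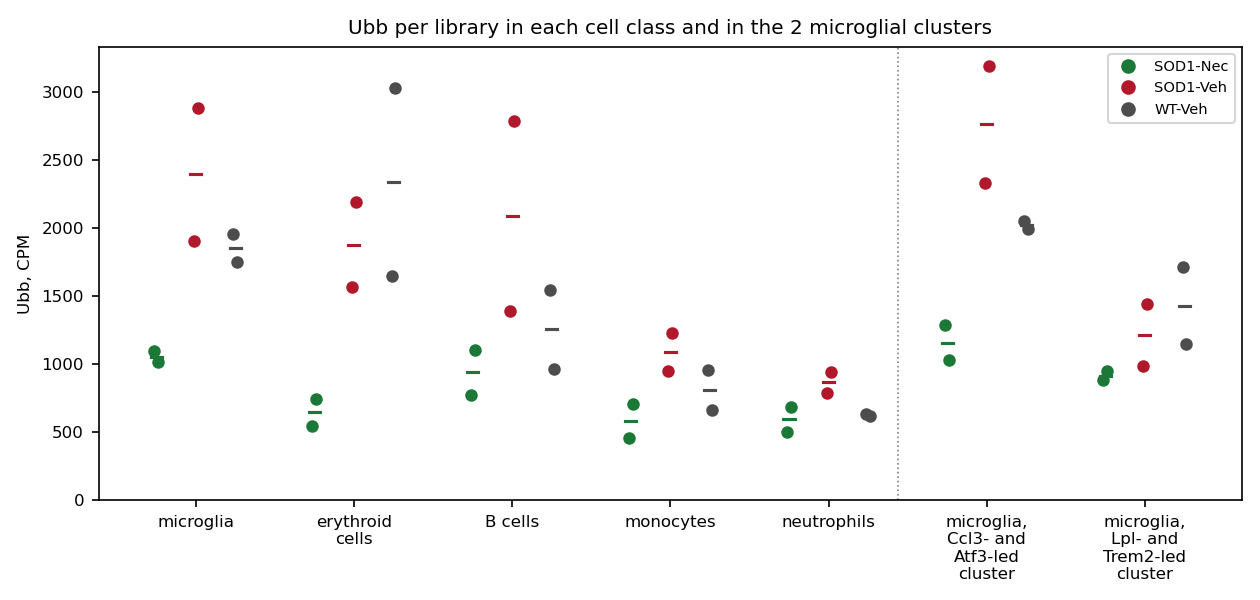
Ubb level in every library (CPM), for each of the 5 tested classes and the 2 microglial clusters, with SOD1-Nec, SOD1-Veh and WT-Veh from left to right. Points are libraries and bars their means. In microglia the SOD1-Nec libraries sit at 1097 and 1014 CPM, below the 4 vehicle libraries at 1749 to 2887 CPM, and in neutrophils the groups lie between 502 and 944 CPM.

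Dnajb1, the Hsp40 that is itself an Hsf1 target, had 204 and 143 CPM in SOD1-Nec microglia, 308 and 319 CPM in SOD1-Veh microglia and 282 and 462 CPM in WT-Veh microglia. SOD1-Nec was below all vehicle libraries, from 14 to 42 UMIs a library. It fell 2.21-fold against WT-Veh (log2 -1.15 ± 0.38, edgeR adjusted p = 0.0424). The difference from SOD1-Veh was -0.87 ± 0.39 (edgeR adjusted p = 0.264). The call against WT-Veh was lost without WT-Veh 2 (-0.73, edgeR adjusted p = 0.563), SOD1-Nec 1 (-1.39, edgeR adjusted p = 0.0827) or SOD1-Nec 2 (-0.87, edgeR adjusted p = 0.405). It was also lost with only the 4 libraries compared (edgeR adjusted p = 0.0722) and with no filter on low counts (edgeR adjusted p = 0.267), and DESeq2 gave it no adjusted p. In the Ccl3 and Atf3 cluster Dnajb1 had 161 and 187 CPM in SOD1-Nec, 405 and 269 CPM in SOD1-Veh and 291 and 577 CPM in WT-Veh, without overlap of SOD1-Nec and the others. In the Lpl and Trem2 cluster the 3 groups overlapped.

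Hspa8, the constitutive Hsp70, had 931 and 962 CPM in SOD1-Nec microglia, 1369 and 1712 CPM in SOD1-Veh microglia and 1126 and 1133 CPM in WT-Veh microglia. The groups did not overlap, with SOD1-Nec lowest and SOD1-Veh highest. The log2 difference between SOD1-Nec and SOD1-Veh was -0.70 ± 0.23 (edgeR adjusted p = 0.0694), and that between SOD1-Veh and WT-Veh was 0.43 ± 0.23 (edgeR adjusted p = 0.467). In the Ccl3 and Atf3 cluster Hspa8 had 1236 and 1146 CPM in SOD1-Nec, 1555 and 1795 CPM in SOD1-Veh and 1284 and 1255 CPM in WT-Veh, in the same order. In the Lpl and Trem2 cluster it had 628 and 776 CPM in SOD1-Nec, 1031 and 1235 CPM in SOD1-Veh and 674 and 873 CPM in WT-Veh, where SOD1-Veh was highest and SOD1-Nec overlapped WT-Veh. Hspa1a, its inducible relative, had 166 and 61.4 CPM in SOD1-Nec microglia, 91.3 and 116 CPM in SOD1-Veh microglia and 115 and 44.0 CPM in WT-Veh microglia, from 4 to 13 UMIs a library. These overlapped and were too few to test.

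The Hsp90 genes were lowest in SOD1-Veh in microglia, as over all cells, but missed the test. Hsp90aa1 had 689 and 625 CPM in SOD1-Nec microglia, 571 and 392 CPM in SOD1-Veh microglia and 666 and 770 CPM in WT-Veh microglia. Hsp90ab1 had 1748 and 1710 CPM in SOD1-Nec microglia, 1483 and 1451 CPM in SOD1-Veh microglia and 1843 and 2265 CPM in WT-Veh microglia. Both SOD1-Veh libraries lay below the other 4 for each gene. This order held in 1 of the 2 microglial clusters for each gene. In the Ccl3 and Atf3 cluster Hsp90aa1 overlapped, with 564 and 678 CPM in SOD1-Nec, 648 and 395 CPM in SOD1-Veh and 650 and 635 CPM in WT-Veh. In the Lpl and Trem2 cluster Hsp90ab1 had 1560.0 and 1708 CPM in SOD1-Nec, 2105 and 1372 CPM in SOD1-Veh and 1919 and 2019 CPM in WT-Veh, so that the SOD1-Veh libraries were the highest and the lowest. The differences between SOD1-Veh and WT-Veh were -0.57 ± 0.27 for Hsp90aa1 (edgeR adjusted p = 0.394) and -0.50 ± 0.22 for Hsp90ab1 (edgeR adjusted p = 0.347). Dnaja1 had 140 and 287 CPM in SOD1-Nec microglia, 240 and 232 CPM in SOD1-Veh microglia and 218 and 176 CPM in WT-Veh microglia, and the 2 SOD1-Nec libraries spanned all others.

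The share of microglia in which Ubb was detected was also lowest in SOD1-Nec. With each cell thinned to 500 UMIs, which left out 142 of 277 SOD1-Nec, 43 of 162 SOD1-Veh and 65 of 194 WT-Veh microglia, the share was 38.5% in SOD1-Nec (exact 95% interval 30.3 to 47.3), 63.0% in SOD1-Veh (53.7 to 71.7) and 50.4% in WT-Veh (41.5 to 59.3). Per library the shares were 34.4% and 41.9% in SOD1-Nec, 59.4% and 67.3% in SOD1-Veh and 51.7% and 49.3% in WT-Veh, with no overlap of groups. Without thinning they were 38.3%, 66.7% and 63.9%. Every class expresses Ubb, so no class gives its background from free RNA. In neutrophils, the tested class with the lowest Ubb level, the thinned share was 20% in SOD1-Nec, 32.1% in SOD1-Veh and 26.1% in WT-Veh. Hspa8 was detected in 36.3%, 45.4% and 39.5% of thinned microglia in the same order of groups, and Dnajb1 in 7.41%, 10.1% and 12.4%.

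Outside microglia, Ubb was lower in SOD1-Nec in erythroid and B cells. Erythroid cells had 549 and 741 CPM in SOD1-Nec, 1569 and 2190 CPM in SOD1-Veh and 1650 and 3028 CPM in WT-Veh. Both SOD1-Nec libraries lay far below the others, and SOD1-Veh overlapped WT-Veh. The fall was 2.77-fold against SOD1-Veh (log2 -1.47 ± 0.29, edgeR adjusted p = 0.00658) and 3.38-fold against WT-Veh (log2 -1.76 ± 0.29, edgeR adjusted p = 9.61e-04). TMM factors were 1.31 and 1.29 in SOD1-Nec, 0.858 and 0.960 in SOD1-Veh and 0.964 and 0.746 in WT-Veh. On unscaled UMIs of the erythroid cells, the ratio of SOD1-Nec to SOD1-Veh was 0.484 (exact 95% interval 0.413 to 0.568, counting error only) and that to WT-Veh was 0.469 (0.400 to 0.548), both closer to 1 than the fitted folds. The order held in both erythroid clusters. In the one led by Hemgn and Car1, Ubb had 609 and 971 UMIs per 1000000 in SOD1-Nec, 1300 and 1821 in SOD1-Veh and 1471 and 2192 in WT-Veh, and in the one led by Fam220a and Hba-a2 it had 955 and 916 in SOD1-Nec, 1447 and 2942 in SOD1-Veh and 1934 and 2349 in WT-Veh. B cells had 777 and 1101 CPM in SOD1-Nec, 1394 and 2786 CPM in SOD1-Veh and 1547 and 968 CPM in WT-Veh. SOD1-Nec fell 2.29-fold below SOD1-Veh (log2 -1.20 ± 0.31, edgeR adjusted p = 0.0487) and overlapped WT-Veh (log2 -0.46, edgeR adjusted p = 0.755). The fall against SOD1-Veh missed the threshold in erythroid cells without SOD1-Veh 2 (-1.19, edgeR adjusted p = 0.0693) or SOD1-Nec 1 (-1.27, edgeR adjusted p = 0.128), with up to 40% mitochondrial UMIs (-1.43, edgeR adjusted p = 0.0718) or at Leiden resolution 0.5 (-1.27, edgeR adjusted p = 0.0946). In B cells it missed it without WT-Veh 1 (edgeR adjusted p = 0.0868), WT-Veh 2 (0.0541), SOD1-Veh 2 (log2 -0.58, edgeR adjusted p = 0.721) or SOD1-Nec 1 (0.363).

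Monocytes had 456 and 705 CPM of Ubb in SOD1-Nec, 949 and 1232 CPM in SOD1-Veh and 957 and 666 CPM in WT-Veh, with a log2 difference of -0.93 ± 0.35 between SOD1-Nec and SOD1-Veh (edgeR adjusted p = 0.254). Neutrophils had 502 and 687 CPM in SOD1-Nec, 788 and 944 CPM in SOD1-Veh and 632 and 622 CPM in WT-Veh, with a difference of -0.52 ± 0.30 (edgeR adjusted p = 0.523). SOD1-Nec lay below SOD1-Veh in both, and neither difference passed the test. Among the other chaperone genes, Hsp90aa1 in neutrophils had 465 and 537 CPM in SOD1-Nec, 244 and 258 CPM in SOD1-Veh and 241 and 267 CPM in WT-Veh. Neutrophils were also made of 2 clusters, and that led by Ngp and Camp, granule genes of immature cells, held 55 of 78 and 67 of 81 neutrophils in SOD1-Nec. It held 18 of 51 and 16 of 50 neutrophils in SOD1-Veh, and 41 of 92 and 33 of 61 neutrophils in WT-Veh. The rest were in a cluster led by Retnlg and Cxcr2. Within the Ngp and Camp cluster Hsp90aa1 had 472 and 544 UMIs per 1000000 in SOD1-Nec, 428 and 366 in SOD1-Veh and 358 and 304 in WT-Veh. In the Retnlg and Cxcr2 cluster it had 353.5 and 497.5 in SOD1-Nec, 44.26 and 180.1 in SOD1-Veh and 53.54 and 165.6 in WT-Veh, from 1 to 5 UMIs a library. Both SOD1-Nec libraries were the highest in the class and in both clusters. The class had differences of 1.00 ± 0.36 from SOD1-Veh (edgeR adjusted p = 0.261) and 1.02 ± 0.34 from WT-Veh (edgeR adjusted p = 0.189).

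In SOD1-Veh against WT-Veh 0 of 5 genes tested in B cells passed (0.2% of all genes did), 0 of 6 in erythroid cells (0.302%), 0 of 4 in monocytes (1.59%) and 0 of 5 in neutrophils (0.118%). In SOD1-Nec against SOD1-Veh, 1 of 5 passed in B cells (1.2% of all genes passed, 0.301% lower), 1 of 6 in erythroid cells (1.96% of all genes passed, 0.981% lower), 0 of 4 in monocytes (1.83%) and 0 of 5 in neutrophils (0.0% of all genes, and 98 of 847 at an unadjusted p below 0.05). In SOD1-Nec against WT-Veh, 1 of 6 passed in erythroid cells (2.57% of all genes passed, 2.49% lower), 0 of 5 in B cells (0.501%), 0 of 4 in monocytes (0.122%) and 0 of 5 in neutrophils (0.118%). In each case the gene was Ubb. The counts of 0 stood beside 0 to 2 genes per class at an unadjusted p below 0.05, where 6.38% to 17.4% of all genes were. DESeq2 called 0, 1 and 1 genes over the 4 classes together, and the share of all genes it called there was not worked out. Haemoglobin genes moved as well in these classes. Hba-a2 rose in B cells in SOD1-Nec against SOD1-Veh and WT-Veh, by 1.24 and 1.63 on the log2 scale, and in erythroid cells Hba-a2 and Hbb-bt fell against WT-Veh, both by 1.19. Their part in the Ubb values was not tested.

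Whether the response of a gene differed between classes was tested with a class by group interaction over 2664 genes. Over all pairs of classes and comparisons, 0 of the tests of the described genes passed, where 0.138% of all tests did. The smallest edgeR adjusted p was 0.0677, for Ubb in erythroid cells minus neutrophils in SOD1-Nec against WT-Veh, a difference of log2 differences of -1.44 ± 0.39. For SOD1-Nec against SOD1-Veh the same pair differed by -0.88 ± 0.39 (edgeR adjusted p = 0.791), and microglia minus neutrophils by -0.64 ± 0.40 (edgeR adjusted p = 0.937). The pair with the smallest p passed with RLE size factors (-1.50 ± 0.39, edgeR adjusted p = 0.0290) and without WT-Veh 1 (-1.80 ± 0.47, edgeR adjusted p = 0.0402). Without WT-Veh 1, Ubb in B cells minus erythroid cells passed as well (2.10 ± 0.48, edgeR adjusted p = 0.022).

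Not every ubiquitin-coding gene moved with Ubb in microglia. Rps27a, which encodes ubiquitin fused to a ribosomal protein, had 1977 and 1925 CPM in SOD1-Nec, 1209 and 1045 CPM in SOD1-Veh and 1050 and 1078 CPM in WT-Veh. It rose 1.71-fold against SOD1-Veh (log2 0.78 ± 0.23, edgeR adjusted p = 0.0248) and 1.81-fold against WT-Veh (log2 0.85 ± 0.23, edgeR adjusted p = 0.0061). For Rps27a the SOD1-Nec libraries did not overlap the vehicle libraries, which overlapped between genotypes.

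**Figure D5:**
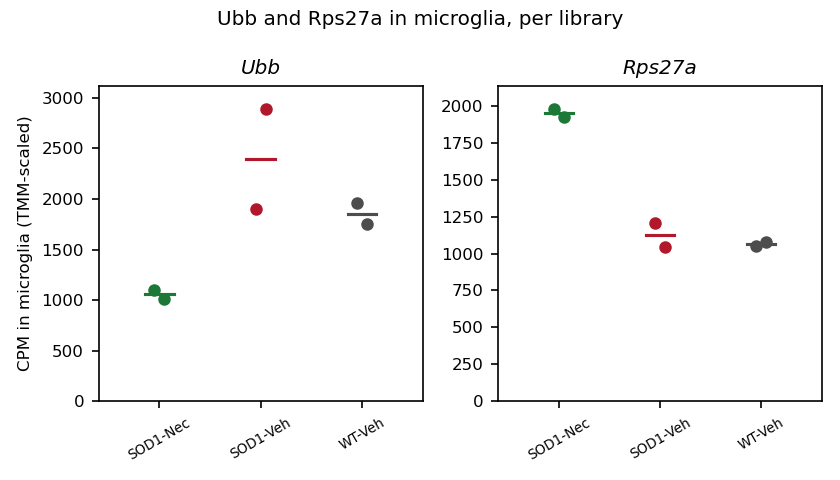
Level of Ubb and Rps27a in microglia in every library (points, with bars for means, CPM, each panel on its own axis from 0), with SOD1-Nec, SOD1-Veh and WT-Veh from left to right. Ubb is lowest in both SOD1-Nec libraries (1097 and 1014 CPM), while Rps27a is highest there (1977 and 1925 CPM).

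Of the ubiquitin list as a whole, 8 of 21 genes were tested in microglia. In SOD1-Nec against SOD1-Veh, 1 fell and 1 rose (Rps27a), and the median log2 difference was -0.53, beside -0.04 over all genes. In SOD1-Veh against WT-Veh none passed and all 8 were above 0, with a median of 0.22 beside 0.03. Of 18 proteasome genes tested in microglia, none passed in any comparison. The proteasome gene with the smallest p in SOD1-Nec against SOD1-Veh, Psmd8, had 63.8 and 51.2 CPM in SOD1-Nec, 171 and 203 CPM in SOD1-Veh and 51.2 and 98.98 CPM in WT-Veh (log2 -1.69 ± 0.67, edgeR adjusted p = 0.158).

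The co-chaperone list had 4 of 24 genes tested in microglia, and 1 of them, Fkbp5, fell in SOD1-Nec against WT-Veh. Fkbp5 encodes an Hsp90-bound immunophilin that is a classic target of the glucocorticoid receptor. It had 140 and 61.4 CPM in SOD1-Nec, 240 and 218 CPM in SOD1-Veh and 346 and 429 CPM in WT-Veh. The 3 groups did not overlap, and the fall against WT-Veh was 4.0-fold (log2 -2.00 ± 0.42, edgeR adjusted p = 2.51e-04). Against SOD1-Veh the difference was -1.23 ± 0.46 (edgeR adjusted p = 0.121). Over all retained cells Fkbp5 had 45.4 and 31.2 CPM in SOD1-Nec, 109 and 75.3 CPM in SOD1-Veh and 107 and 150.2 CPM in WT-Veh, and its difference of -1.76 ± 0.36 from WT-Veh had an edgeR adjusted p of 0.153. None of 6 Hsp40 genes, 2 Hsp70 and Hsp110 genes, 5 chaperonin genes and 2 heat shock factor genes tested in microglia passed. No small heat shock protein gene had enough counts there.

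Immediate-early genes, which are transcribed within minutes of a stimulus and rise with tissue dissociation, were all testable in microglia, 24 of 24. In SOD1-Nec against SOD1-Veh, 6 fell and none rose, where 1.3% of all genes fell and 2.08% rose. Of the 24, 21 were below 0, and the median was -0.60 beside -0.04 over all genes. Klf2, a transcription factor gene, had 3164 and 2795 CPM in SOD1-Nec, 5442 and 6166 CPM in SOD1-Veh and 6182 and 3937 CPM in WT-Veh (log2 -0.97 ± 0.21 against SOD1-Veh, edgeR adjusted p = 7.74e-04). Dusp1, a phosphatase of MAP kinases, differed by -0.86 (edgeR adjusted p = 0.00873) and Socs3, a brake on cytokine signalling, by -0.90 (edgeR adjusted p = 0.0147). In SOD1-Nec against WT-Veh, 6 fell and none rose, where 2.53% of all genes fell and 3.83% rose. The median was -0.57 beside -0.0044 over all genes. Jun, a subunit of the transcription factor AP-1, had 6276 and 6153 CPM in SOD1-Nec, 9150 and 9474 CPM in SOD1-Veh and 13520 and 11690 CPM in WT-Veh (log2 -1.04 ± 0.20 against WT-Veh, edgeR adjusted p = 7.09e-05). Fos, its partner, differed by -0.81 (edgeR adjusted p = 0.0038) and Dusp1 by -1.09 (edgeR adjusted p = 1.52e-04). None passed in SOD1-Veh against WT-Veh, where 2.4% of all genes did. In that comparison 7 of all 69 listed genes tested had an unadjusted p below 0.05, as did 11.7% of all genes.

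These genes were among those that could form the clusters, and Jun and Atf3 lead the microglial cluster whose share was lower in SOD1-Nec. Over the chaperone, ubiquitin, proteasome and immediate-early lists together, 8 of 69 genes passed in SOD1-Nec against SOD1-Veh in microglia (3.38% of all genes did). In SOD1-Nec against WT-Veh, 9 of 69 passed (6.36% of all genes did). The 8 became 1 without SOD1-Veh 2 or SOD1-Nec 2 and 2 without SOD1-Nec 1. The 9 became 3 without WT-Veh 1, 4 without SOD1-Nec 1 and 2 without SOD1-Nec 2. The part of the immediate-early genes in the Ubb result was not tested.

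Over all retained cells 0 of 144 genes tested in these lists passed the edgeR test in any comparison, where 0.0401% to 0.829% of all genes did. At an unadjusted p below 0.05 there were 7 in SOD1-Veh against WT-Veh (10.4% of all genes). There were 23 in SOD1-Nec against SOD1-Veh (7.06% of all genes) and 12 in SOD1-Nec against WT-Veh (8.46% of all genes). Of 39 proteasome genes, 35 were above 0 in SOD1-Veh against WT-Veh, with a median of 0.24 beside 0.01 over all genes. Of 24 immediate-early genes, 22 were below 0 in SOD1-Nec against SOD1-Veh, with a median of -0.55 (log2) beside -0.01. Of 15 chaperonin genes, which form the ring-shaped folding chambers and their co-factors, 14 were above 0 in SOD1-Nec against WT-Veh, with a median of 0.33.

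Across the 30 levels of 5 classes in 6 libraries, the genes whose levels ran most like each chaperone gene were listed for those with a mean of at least 100 CPM. The points share libraries, depth and class composition, and the Pearson correlations of log2(CPM + 10) are descriptions. Ubb ran most like Ywhah (0.725), Ppp1r15a (0.692) and Eif1 (0.616). Dnajb1 ran most like Cd81 (0.780), Ywhah (0.760) and Nfkbia (0.739). Hspa8 ran most like H2-DMa (0.827), Ctsz (0.823) and Serinc3 (0.815). Hsp90ab1 ran with mt-Nd1 (0.886), Slc25a5 (0.856) and Rpl5 (0.846), and Hsp90aa1 with Rps2 (0.771), Rplp1 (0.767) and Rpl14 (0.765). Dnaja1 ran most like Srsf7 (0.678), Tsc22d4 (0.639) and Nisch (0.638). With the mean of each class taken out, the correlations with the same 3 genes were 0.176 to 0.314 for Hspa8, 0.31 to 0.407 for Dnajb1, 0.362 to 0.66 for Ubb, 0.523 to 0.702 for Dnaja1, 0.578 to 0.705 for Hsp90ab1 and 0.591 to 0.749 for Hsp90aa1.

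Copies elsewhere in the genome limit 2 of the counts. Of the 451 stretches of 50 bases in the last 500 bases of the longest coding transcript (GENCODE M21), 278 of Ubb (61.6%) and 369 of Hspa8 (81.8%) occur also in other annotated genes, pseudogenes such as Gm1821 and Gm15459. Those copies are not listed in the tables, so reads shared with them are uncertain for Ubb and Hspa8. Hsp90ab1 shared 35 stretches (7.76%), and Hsp90aa1, Hsph1, Dnajb1 and Dnaja1 shared none. Hspa1a and Hspa1b, which share 60.3% and 62.3% of such stretches over the whole transcript, shared none in these last 500 bases.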

How the data were processed

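The deposited tables hold counts of UMIs per gene symbol and cell barcode, not normalized, 1 table per library, for spinal cord cells of 3 groups of 2. Drop-seq is stated per the labels' protocols and build mm9 per the submitters' processing notes. The aligner was not given in the sources used here, nor was the annotation. There were 18169 symbols in each replicate 1 table and 18650 in each replicate 2 table.

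Barcodes with at least 200 genes and at most 20% mt- UMIs (3360 of 21919) were cleared of 29 doublets marked by Scrublet in scanpy 1.11.5 (Python 3.11.15). They were scaled to 10000, log-transformed and clustered (2000 variable genes without the described and listed chaperone and ubiquitin genes, 30 components, 15 neighbours, leidenalg 0.10.2, resolution 1). Classes were named from marker lists. The 9 genes, the lists and the markers were chosen with earlier results of these data known. Of 180 listed symbols 174 were found.

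UMIs of all retained cells, or of 1 class, were added up per library and tested with edgeR 4.0.16 in R 4.3.3 (TMM, filterByExpr, quasi-likelihood, 6 libraries in 1 fit without covariates, Benjamini-Hochberg over all genes, threshold 0.05). The class by group interaction had library as a block. CPM are the TMM-scaled CPM of these fits, except in pooled classes, microglial clusters and the class order, where they are UMIs per 1000000 of the class. The tests were also run on simulated counts. Unlike these data, those gave every gene the same spread between libraries, and all groups the same mean profile apart from the genes changed. Retained UMIs per library ran between 429821 and 650663. Intervals, also those at 0 UMIs, cover counting error only. With 2 libraries a group, an exact permutation test of a single value cannot go below 0.333. The 2 libraries of a group differed by more than sampling noise, with chi-square over degrees of freedom of 3.64 in SOD1-Nec, 3.52 in SOD1-Veh and 6.91 in WT-Veh.

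Named were all 9 genes, from each list up to 3 genes passing the test or, where none did, the 1 with the smallest p (a selection of these is printed), the 3 genes most like each of the 9, and Sod1. Some genes named by this rule, and some markers, are not reported here. Alternatives were DESeq2 1.42.0, other size factors, no filter on low counts, other cell filters, clusterings and cell sets, a replicate block and each library left out.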

Additional observations from a re-analysis of the deposited data

Results flagged for a closer look

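Barcodes with under 100 genes were in no comparison of the report. Whether they hold free RNA or cells with few detected genes was not tested. Genes with at least 10 UMIs in both libraries of an SOD1-G93A group were considered, in UMIs per 1000000. Of the 9, 4 stood higher in such a group than in both WT-Veh libraries. The share of all genes that did so was not worked out, so this count is not a result particular to these genes. Hsph1 also stood higher, from 9 UMIs in each SOD1-Veh library, with 21.6 and 18.1 in SOD1-Nec, 44.1 and 40.8 in SOD1-Veh and 29.98 and 36.2 in WT-Veh. Hspa8 had 119 and 84.7 in SOD1-Nec, averaged 284 in SOD1-Veh (270 and 299), and had 143 and 165 in WT-Veh. Hsp90ab1 had 658 and 324 in SOD1-Nec, averaged 1190 in SOD1-Veh (1370 and 1000), and had 843 and 774 in WT-Veh. Dnaja1 had 46.8 and 27.2 in SOD1-Nec, averaged 125 in SOD1-Veh (122 and 127), and had 43.3 and 75.8 in WT-Veh. For Hspa8 and Hsp90ab1 both SOD1-Nec libraries were below WT-Veh. Ubb averaged 861 in SOD1-Nec (792 and 931) and 1070 in SOD1-Veh (872 and 1260), against 720 and 731 in WT-Veh. In these barcodes both SOD1-Nec libraries were therefore above WT-Veh for Ubb, unlike in microglia. In barcodes with at least 200 genes and over 20% mt- UMIs, Ubb had 706 and 848 per 1000000 in SOD1-Nec, 1053 and 2051 in SOD1-Veh and 1085 and 772 in WT-Veh.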

How the results depend on the processing

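Of 555 alternative values of single genes and comparisons, 512 kept their direction and their side of the threshold, 31 missed a threshold they had passed, 6 passed one they had missed and 6 changed sign. Over all cells, the count of the 9 genes passing in SOD1-Nec against SOD1-Veh was 1 (Ubb) with DESeq2. The replicate numbers followed a split of the tables, with 18169 symbols in each replicate 1 table and 18650 in each replicate 2 table. What this split stands for was not tested, and the main fits had no term for it. Differences of replicate 1 from replicate 2 did not run the same way in all groups. Their correlation over all cells was 0.170 between SOD1-Nec and SOD1-Veh. With WT-Veh it was -0.271 for SOD1-Nec and -0.187 for SOD1-Veh. With the replicate block, chaperone genes passing were 0 in every comparison over all cells, where 63, 41 and 5 of all 7482 genes passed. They were 0, 1 and 1 in microglia, where 31, 46 and 87 of all 1540 genes passed. Dnajb1 in microglia in SOD1-Nec against WT-Veh had an edgeR adjusted p of 0.0617 with this block. The block with the numbers of WT-Veh crossed was chosen after seeing the data. With it, chaperone genes passing were 1, 1 and 0 over all cells, where 200, 99 and 52 of all 7482 genes passed. In microglia they were 0, 2 and 2, where 41, 68 and 113 of all 1540 genes passed. In microglia, SOD1-Nec against SOD1-Veh gave 2 with doublets kept (Hspa8 added) and 0 with the Ccl3 and Atf3 cluster left out. SOD1-Nec against WT-Veh gave 1 with only the 4 libraries compared or with at least 400 genes a cell, and 0 with no filter on low counts or in either microglial cluster alone; DESeq2 gave Dnajb1 no adjusted p there. In the other 4 classes, SOD1-Nec against SOD1-Veh gave 2 in all, 1 with DESeq2, no filter on low counts, only the 4 libraries, doublets kept or clusters formed with the 9 genes, and 0 with up to 40% mt- UMIs or Leiden resolution 0.5. With the Ccl3 and Atf3 cluster left out, Ubb in microglia was -0.29 in SOD1-Nec against SOD1-Veh and -0.37 in SOD1-Veh against WT-Veh. Hsph1 in SOD1-Nec against WT-Veh was 0.23 (log2) with neural, vascular and microglial cells only. The interaction gave 1 call, Ubb, with RLE factors. Thinned to 300 UMIs, the Ubb share of microglia was 23.8%, 40% and 36.5%, and 63.9% in WT-Veh without thinning. The cause of these changes was not tested. Leaving out each library in turn gave 0 to 1 chaperone genes over all cells in SOD1-Veh against WT-Veh, 0 to 1 and 0 to 2 in microglia in SOD1-Nec against SOD1-Veh and WT-Veh, and 0 to 2 in the other classes. It gave 0 to 1, 1 to 8 and 2 to 12 listed genes in microglia, 0 to 1 over all cells, and 0 to 2 interactions. The share of all genes passing with a library left out was not worked out. Ubb in microglia ran from -1.44 to -0.83 (SOD1-Nec against SOD1-Veh) and from -0.0101 to 0.63 (SOD1-Veh against WT-Veh), and against WT-Veh in SOD1-Nec from -0.76 to 0.11 in B cells and -0.35 to 0.17 in neutrophils. Hsph1 over all cells ran from -0.84 to 0.23 in SOD1-Nec against WT-Veh. Counts under about 20 UMIs a library limit Hspa1a, Hspa1b, Hsph1 and Dnajb1 within classes.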
